A study of Mus musculus with 2 samples.

Results

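Mouse muscle stem cells cultured on plate 2, in medium with low glucose or with galactose, were compared with freshly isolated muscle stem cells of plate 1, and the comparison was read mainly for weakly expressed genes. The cultured side held the 241 wells of plate 2 labelled low glucose (120 wells) or galactose (121 wells), pooled, and the freshly isolated side held 102 wells labelled quiescent, out of 456 wells in the whole series. All of them passed a minimum of 500 gene counts and 250 genes per well. The other 113 wells, cultured in high glucose, shared plate 1 with the freshly isolated cells, and their values are given beside most results because they are the cultured cells of the same plate.

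Fluorescence sorting placed 1 cell per well of 384-well plates. Libraries of polyadenylated RNA followed a modified CEL-Seq2 protocol, in which the RNA of every well carries its own barcode. The cultured cells had been grown for 96 h in DMEM with 5 mM glucose (low glucose), 10 mM galactose (galactose) or 25 mM glucose (high glucose). All 3 media also held 1 mM sodium pyruvate, fetal bovine serum, horse serum, chick embryo extract, bFGF and antibiotics. No culture is given in the labels for the freshly isolated cells. Strain, age, sex and number of mice were not stated in the labels.

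Muscle stem cells lie between a muscle fibre and its basement membrane, where they stay out of the cell cycle until injury. In culture they leave that state, enlarge, build ribosomes and mitochondria, and enter the cell cycle as myoblasts. Notch signals, the calcitonin receptor, collagens and laminins of the niche, and imprinted genes are known as parts of the quiescent state.

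Each plate was 1 library, so a condition had no replicate, no test between conditions was possible, and plate and culture cannot be told apart in the plate 2 comparison. Counts were summed over the wells of a condition and scaled by the gene counts of the pool to the usual counts-per-million unit (CPM). The plate 2 pool held 3769961 gene counts (1734279 in low glucose and 2035682 in galactose), the high glucose pool 887611 and the freshly isolated pool 284109. A single count was therefore worth 0.265 CPM in the plate 2 pool and 3.52 CPM in the freshly isolated pool. Gene counts per well had a median of 13955 (range 1711 to 44097) on plate 2 and 2536 (1549 to 6750) in freshly isolated cells. Per well, gene counts divided by counts of the ERCC spike-in RNAs had a median of 47.8 on plate 2, 57.0 in high glucose, against 18.3 in freshly isolated cells. A pool level cannot tell fewer cells with an RNA from less of it per cell, and free RNA can add counts to wells, so the number of wells behind a value is given for genes with few counts. The 2 plates shared 200 barcodes (of 241 on plate 2 and 216 on plate 1), so a well is known by its plate and barcode together. All 15 muscle stem cell markers had counts in each pool, at a summed level of 2378 CPM on plate 2, 2337 CPM in high glucose and 7184 CPM in freshly isolated cells.

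More genes were found on plate 2, but not at equal depth. The plate 2 pool had a count for 19095 genes, the high glucose pool for 16549 and the freshly isolated pool for 13127. Drawn down to the 284109 counts of the freshly isolated pool, the plate 2 pool would give 12726 genes and the high glucose pool 13434. Low glucose and galactose alone would give 12754 and 12687 at that depth. The number of genes found was thus 401 lower on plate 2 than in freshly isolated cells once depth was equal, and 307 higher in high glucose.

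**Figure D1:**
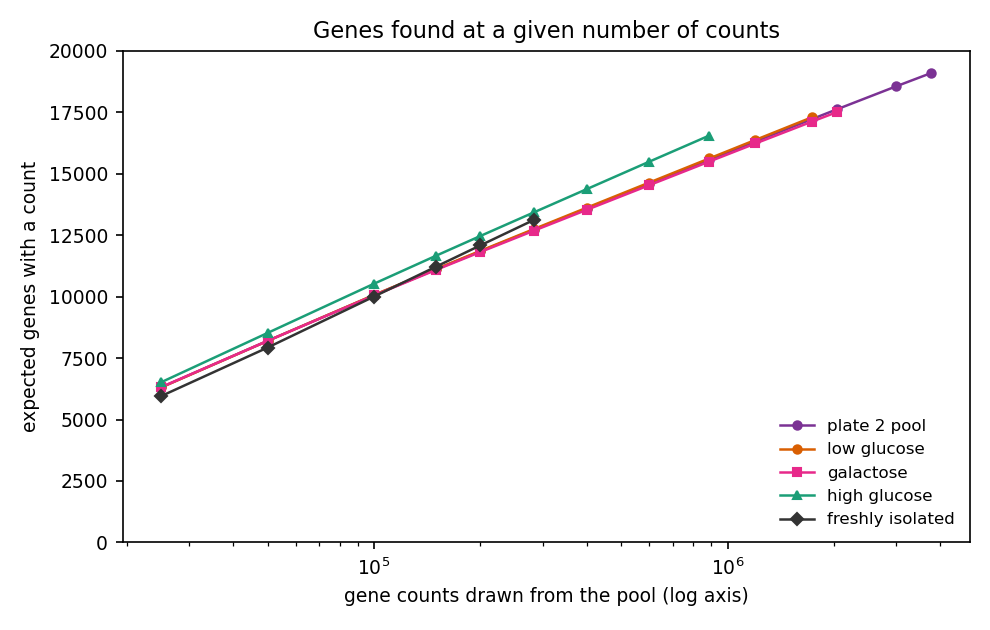
Expected number of genes with a count (vertical axis) when a pool is drawn down to a given number of gene counts (horizontal axis, log scale), for the plate 2 pool, its low glucose and galactose wells, and the high glucose and freshly isolated pools of plate 1. At 284109 counts the plate 2 pool gives 12726 genes and the freshly isolated pool 13127, and the plate 2 curve goes on to 19095 genes.

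A gene was called higher on plate 2 when the whole 95% interval of its ratio of CPM (plate 2 over freshly isolated) lay above 2, and lower when it lay below 0.5. The interval is exact and conditional on the total count, and covers counting error only. Of 8789 genes with a mean of both pools of at least 10 CPM, called measured here, 272 (3.09%) were higher and 707 (8.04%) lower. A gene can pass this mean through 1 pool alone, so shares and medians of the gene lists below partly follow from the filter and are a description. Genes with a mean of at least 10 and under 50 CPM were taken as weakly expressed. Of these 4950 genes, 106 (2.14%) were higher and 334 (6.75%) lower. By the ratio alone, without the interval, 1632 weakly expressed genes (33.0%) lay at or above 2 and 828 (16.7%) at or below 0.5, so most ratios of that size had an interval that reached inside 2-fold. Within plate 1, high glucose against freshly isolated cells gave 84 higher (1.67%) and 183 lower (3.64%) of 5034 weakly expressed genes. Over all 8882 genes measured in that comparison, 242 (2.72%) were higher and 464 (5.22%) lower. Both comparisons used the same freshly isolated pool. The median log2 ratio (with 1 CPM added) was 0.36 over all measured genes and 0.40 over the weakly expressed ones, and single values below are to be read against that shift. When the pools were scaled by spike-ins in place of gene counts, the median of all measured genes shifted by a further 1.34, and 1425 weakly expressed genes were higher and 121 lower.

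The weakly expressed genes that were lower on plate 2 had a median of 2.88 CPM in low glucose, 2.95 CPM in galactose, 6.76 CPM in high glucose and 42.2 CPM in freshly isolated cells. Those that were higher had medians of 53.6, 57.5 and 42.8 CPM in low glucose, galactose and high glucose, against 3.52 CPM (1 count) in freshly isolated cells. Since the freshly isolated level chose these genes, their levels are a description. All 106 higher genes and 333 of the 334 lower ones were past a ratio of 2 in the same direction with low glucose alone and with galactose alone. Both media are parts of the pool that chose these genes, against the same freshly isolated counts. This result thus largely follows from the choice and is a description too. Without the 2 plate 2 wells and 16 freshly isolated wells that held 3 or more markers of another cell type, 85 weakly expressed genes were higher and 319 lower. After thinning every well to 1000 counts, 10 were higher and 83 lower.

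**Figure D2:**
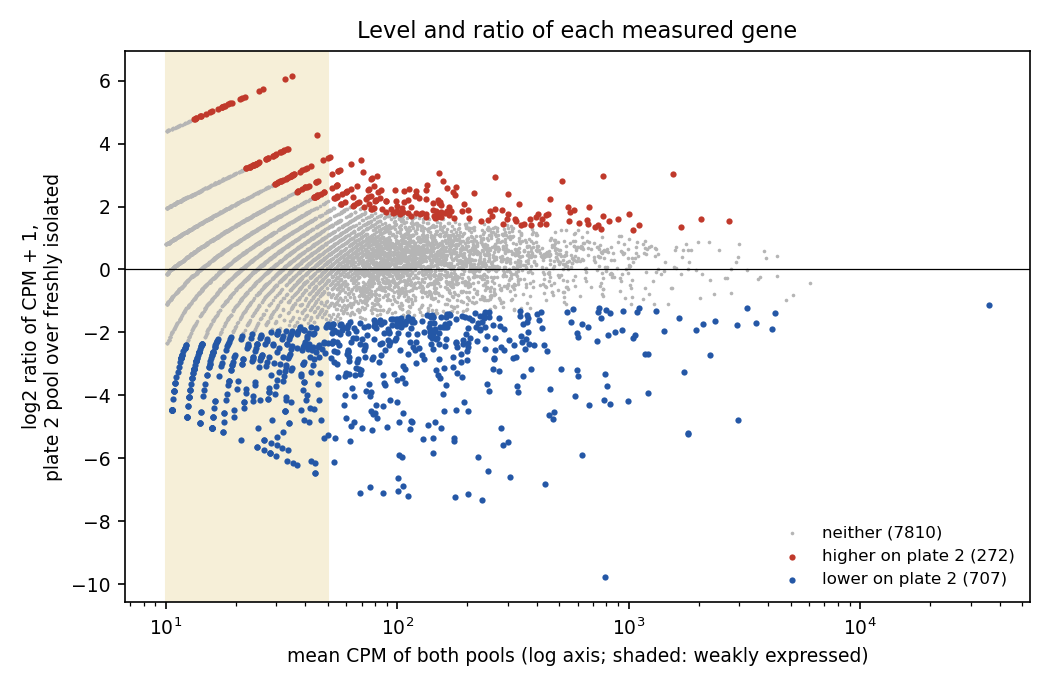
Mean CPM of the plate 2 and freshly isolated pools (horizontal axis, log scale) against the log2 ratio of CPM + 1, plate 2 over freshly isolated (vertical axis), 1 point per measured gene; the 4950 weakly expressed genes lie in the shaded band. Red points are the 272 genes called higher on plate 2 and blue points the 707 called lower; the curved rows in the band are genes with the same few freshly isolated counts.

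Gains on plate 2 are described first. Of the 106 weakly expressed genes that were higher, 87 were protein-coding, 14 were pseudogenes and 0 were long noncoding RNAs. All of them had between 0 and 4 counts in freshly isolated cells and between 100 and 332 counts on plate 2, spread over at least 65 wells. Pseudogenes share sequence with their parent genes, so their counts are uncertain.

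Proteins of mitochondrial ribosomes were prominent among the named genes, with others of the respiratory chain and the nucleolus. Mrpl35, a protein of the large subunit of the mitochondrial ribosome, had 149 counts (85.9 CPM) in low glucose and 176 (86.5 CPM) in galactose, 64 (72.1 CPM) in high glucose, and 1 count (3.52 CPM) in freshly isolated cells. Its ratio was 24.5 (95% interval 4.37 to 970.3). Mrpl19, of the same subunit, had 64.6 CPM in low glucose, 66.3 CPM in galactose and 75.5 CPM in high glucose, and no count in freshly isolated cells. Set against a floor of 3 counts over that pool, it was at least 6.21-fold higher on plate 2, and the lower end of its exact interval was 5.01. Folds written as at least a value are set against this floor, and the exact interval of such genes reaches closer to 1. Both genes stood at similar levels in all 3 media and were near or at 0 counts before culture.

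Mrpl12, which also binds the mitochondrial RNA polymerase, had 87.1 and 88.9 CPM in low glucose and galactose and 66.5 CPM in high glucose, against 7.04 CPM (2 counts) in freshly isolated cells, a ratio of 12.5 (3.44 to 103.7). Mrps18a, a protein of the small subunit, had a ratio of 16 (2.84 to 634.0), with 37.2 CPM in high glucose, where it was not called. Uqcc1, an assembly factor of respiratory complex III, had 47.3 CPM in low glucose, 57.0 CPM in galactose, 51.8 CPM in high glucose and no freshly isolated count, and was at least 4.97-fold higher (lower end of the interval 4.01). Wdr46, a nucleolar protein needed for the small ribosomal subunit, had 75.5 and 80.1 CPM in low glucose and galactose and 77.7 CPM in high glucose, against 7.04 CPM in freshly isolated cells. Its ratio was 11.1 (3.04 to 91.9).

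Other named genes served chromatin, protein folding, nucleotide salvage and membrane traffic. H2afj, a variant of histone H2A, had the highest plate 2 level among genes with no freshly isolated count, at 61.7 CPM in low glucose, 77.6 CPM in galactose and 47.3 CPM in high glucose, and was at least 6.66-fold higher (lower end of the interval 5.38). Hspa14, a chaperone bound to ribosomes, had a ratio of 10.5 (2.88 to 87.2), and one of 8.16 (2.15 to 69.2) for high glucose. Uck1, which phosphorylates uridine and cytidine, had a ratio of 16.9 (3 to 669.7), and one of 14.1 (2.4 to 568.8) for high glucose. Bloc1s2, a subunit of complexes that position lysosomes, had 58.2 and 59.0 CPM in low glucose and galactose, 25.9 CPM in high glucose and 3.52 CPM in freshly isolated cells. Its high glucose level lay below both plate 2 media, and it was not called within plate 1.

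Ftl1, the light chain of the iron store ferritin, had a ratio of 18.2 (3.23 to 720.3) and 33.8 CPM in high glucose, where it was not called, but near-identical copies of this gene exist and its counts are uncertain. The same holds for Rasl2-9, a copy of the nuclear transport gene Ran, with 41.9 CPM on plate 2, 56.3 CPM in high glucose and no count in freshly isolated cells.

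In all, 54 genes, 41 of them protein-coding, had no count in freshly isolated cells and a plate 2 level of at least 21.1 CPM, which is 6 counts in the freshly isolated pool. Their plate 2 levels ran up to 70.3 CPM, from 80 to 265 counts each. In high glucose they lay between 4.51 and 75.5 CPM with a median of 22 CPM, and 0 of the 54 were without a count. Mien1, Vps11, Slc30a6, Erh, Pfdn1 and Ddx55 belonged to these genes, with bounds between 3.37-fold (Ddx55) and 4.15-fold (Mien1). Vps11 tethers vesicles to lysosomes, Slc30a6 carries zinc into the Golgi, Pfdn1 is a subunit of the chaperone prefoldin, and Ddx55 is an RNA helicase of the large ribosomal subunit. Erh, a small conserved nuclear protein that takes part in splicing, had 39.2 CPM in low glucose, 35.4 CPM in galactose and 27.0 CPM in high glucose.

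**Figure D3:**
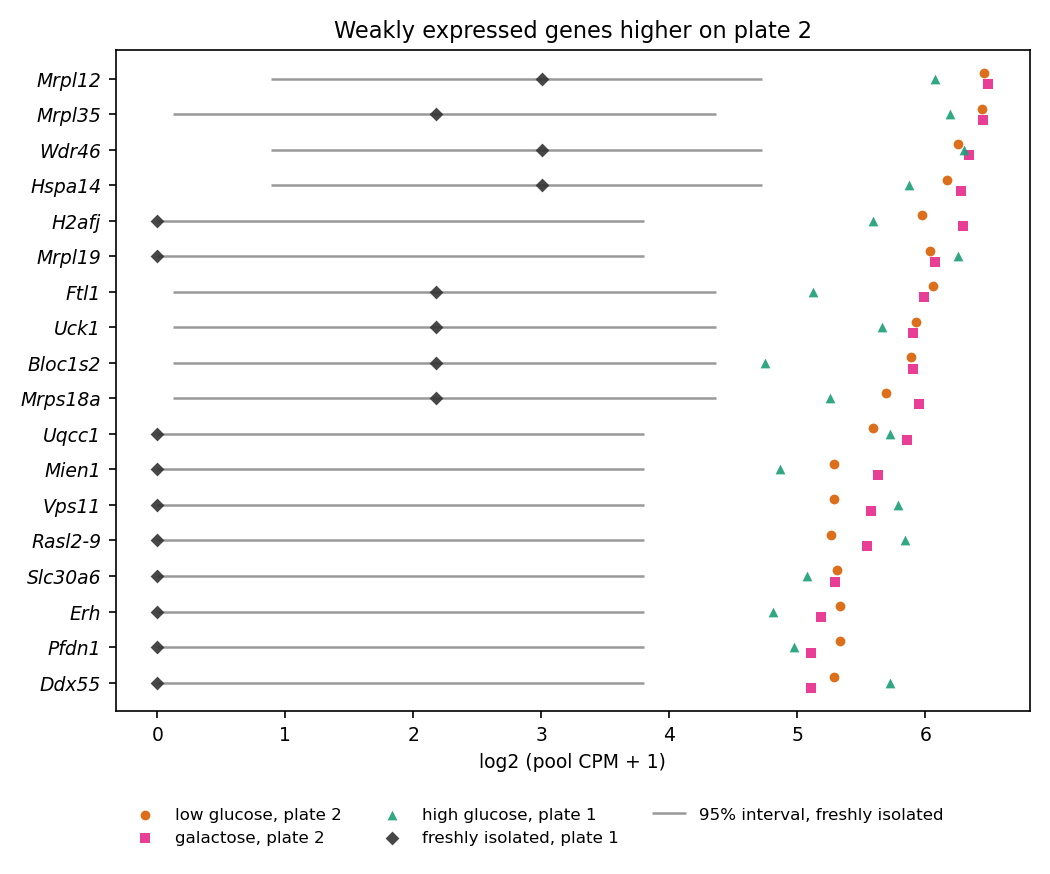
Pool level, as log2 of CPM + 1 (horizontal axis), of 18 named genes higher on plate 2 (rows), in low glucose, galactose, high glucose and freshly isolated cells; grey lines are exact Poisson 95% intervals of the freshly isolated level. The low glucose and galactose points lie to the right of every grey line, and freshly isolated cells have between 0 and 2 counts of each gene.

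Of the fixed gene lists, the mitochondrial ribosome and translation list had the highest median. Of its 77 measured members, 12 (15.6%, against 3.09% of all measured genes) were higher and 0 lower, and the median log2 ratio was 1.47, against 0.36 over all measured genes. Besides the genes above, Mrps31, Mrpl44, Mrps15 and Mrpl28 were called among the weakly expressed members, and Mrps5, Mrpl42, Mrpl3 and Mrps14 above 50 CPM. Within plate 1, 7 of the same members were higher in high glucose than before culture and the median was 1.06. Counts given below for high glucose are calls within plate 1 over the same members. Mrps18b was not called, at 147.0 CPM on plate 2, 176.9 CPM in high glucose and 59.8 CPM in freshly isolated cells, since its interval of 1.52 to 4.25 reached below 2.

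Mitochondrial import showed 5 of 38 measured members higher (13.2%) and 0 lower, with a median log2 ratio of 1.14, and 4 were higher in high glucose. Tomm5, a small subunit of the outer membrane channel, had 53.6 CPM in low glucose, 62.9 CPM in galactose, 34.9 CPM in high glucose and 7.04 CPM in freshly isolated cells. Grpel2, a nucleotide exchange factor for the chaperone of the matrix, had a ratio of 14.3 (2.54 to 568.5), with 39.4 CPM in high glucose, where it was not called. Tomm70a, a receptor for incoming proteins, had 366.8 CPM on plate 2, 387.6 CPM in high glucose and 123.2 CPM in freshly isolated cells. Timm50 and Tomm22 were the other 2 called.

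Ribosome biogenesis and RNA polymerases I and III had 9 of 84 measured members higher (10.7%) and 0 lower, with a median log2 ratio of 0.91, and 6 were higher in high glucose. Utp6, a part of the processome of the small subunit, had 23.6 CPM in low glucose, 38.3 CPM in galactose, 37.2 CPM in high glucose and no freshly isolated count, but was not called with low glucose alone or without the wells holding markers of another type. Ddx56, a nucleolar helicase, had a ratio of 7.46 (2.53 to 36.4), and one of 7.04 (2.31 to 35.0) for high glucose. Npm1, the abundant nucleolar protein nucleophosmin, had 2408 CPM on plate 2, 2280 CPM in high glucose and 936.3 CPM in freshly isolated cells. Ncl, nucleolin, was not called, at a ratio of 1.53 (1.39 to 1.70).

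Single members of other lists were also gained. Parp1, which senses DNA breaks, had no freshly isolated count and 21.9 CPM in low glucose, 30.5 CPM in galactose and 11.3 CPM in high glucose. It was the one DNA repair gene called of 32 measured, and it lost the call with low glucose alone, with TMM or median-of-ratios scaling and without the wells that held markers of another type. Cdh2, N-cadherin, had 45.0 and 44.2 CPM in low glucose and galactose, 24.8 CPM in high glucose and 1 freshly isolated count, and lost the call without those wells too. Vegfb, a ligand of the receptor Flt1, had a ratio of 15.8 (2.80 to 625.1), and one of 14.1 (2.40 to 568.8) for high glucose. Above 50 CPM, Cxcl12, the ligand of Cxcr4, had 220.8 and 275.1 CPM in low glucose and galactose, 113.8 CPM in high glucose and 56.3 CPM in freshly isolated cells. Nme1, a nucleoside diphosphate kinase, had 265.2 and 317.3 CPM in the plate 2 media and 149.8 CPM in high glucose, against 52.8 CPM. Both genes thus had lower levels in the cultured cells of plate 1 than in those of plate 2. Plin2, which coats lipid droplets, had 270.0 CPM on plate 2, 352.6 CPM in high glucose and 31.7 CPM in freshly isolated cells, a ratio of 8.52 (4.47 to 18.7).

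Some lists held no called gene, and since 3.09% higher and 8.04% lower of all measured genes give few calls in a short list, nothing is read from those counts of 0. Of 32 measured members of DNA replication and licensing, 0 were higher and 0 lower, with a median log2 ratio of 0.84. Pcna, the sliding clamp of DNA polymerases, had 336.1 CPM on plate 2, 237.7 CPM in high glucose and 264.0 CPM in freshly isolated cells. Mitosis had 11 measured members of 55 found, 0 called, and a median of 0.18, and the other 44 lay under 10 CPM. Hox and positional genes had 0 called of 16 (median 0.11) and histone acetylation 0 of 33 (0.13). A gene that was not called is not shown to be equal: for Pax7, which marks these stem cells, the interval of the ratio ran from 0.355 to 0.754, with 61.0 CPM on plate 2, 56.3 CPM in high glucose and 119.7 CPM in freshly isolated cells.

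Called losses on plate 2 were more numerous than called gains in the main comparison, scaled by gene counts, and fewer when pools were scaled by spike-ins. By the ratio alone, with scaling by gene counts, the order was reversed, with 1632 weakly expressed genes higher and 828 lower. Without the well with the most counts of each gene, 254 weakly expressed genes were called higher and 248 lower. The excess of called losses thus depended on the interval and on the top well of each gene as well as on the scaling. With the plate 2 pool thinned to the freshly isolated total, 67 weakly expressed genes were higher and 118 lower. The part of the shallower freshly isolated pool was not tested otherwise. Of the 334 weakly expressed genes that were lower, 282 were protein-coding, 19 pseudogenes and 10 long noncoding RNAs. They had between 6 and 27 freshly isolated counts (median 12), found in a median of 9 wells. Depth on the plate 2 side let very low levels be read: 89 genes had 6 or more freshly isolated counts and 3 or fewer on plate 2, of which 40 had none among 3769961 counts. Summed, these 89 genes had 92 counts (24.4 CPM) on plate 2, 423 counts (476.6 CPM) in high glucose and 1655 counts (5825 CPM) in freshly isolated cells. Low plate 2 counts and a minimum of 6 freshly isolated counts chose these genes, so only the high glucose sum was not used in the choice. Its distance from the freshly isolated sum is still partly set by that minimum. Of the 89 genes, 15 had no high glucose count.

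The genes of the 89 with the most freshly isolated counts follow. Erfe, a secreted hormone that lowers the iron regulator hepcidin, had 2 counts in low glucose, 1 in galactose, 51 in high glucose, against 450 in 75 wells of freshly isolated cells (1.15, 0.491, 57.5 and 1584 CPM). Its ratio was 0.000502 (0.000103 to 0.00148). Cfhr2, a relative of complement factor H, had 1 count in each plate 2 medium, 12 in high glucose, against 63 in freshly isolated cells. Slc10a6, a carrier of sulfated steroids, had 2, 1, 15 and 60 counts in low glucose, galactose, high glucose and freshly isolated cells. Dpt, the matrix protein dermatopontin and a fibro-adipogenic marker, had 1 count in each plate 2 medium, 4 in high glucose and 57 in 39 wells before culture. All 4 had counts in 39 or more freshly isolated wells and in 3 or fewer on plate 2.

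Nrep, a small protein first known from regenerating neurons, had no plate 2 count, 7 counts in high glucose, against 39 in freshly isolated cells, and was at least 172.5-fold lower (upper end of the interval of its ratio 0.00748). Adamts4, a protease that cuts the proteoglycan aggrecan, had 1 plate 2 count, 11 in high glucose, against 49 in freshly isolated cells. Fgl2, a secreted relative of fibrinogen, had 1, 12 and 43 counts on plate 2, in high glucose and freshly isolated cells, the last in 14 wells with 10 counts in 1 of them. S1pr3, a receptor for sphingosine-1-phosphate, had 2, 7 and 30 counts in the same order.

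Among weakly expressed genes the bound was most extreme for an enzyme of hyaluronan and one of sialic acid. Has1, a hyaluronan synthase, had no count in low glucose or galactose, 4 (4.51 CPM) in high glucose, against 25 (88.0 CPM) in 18 wells of freshly isolated cells, and was at least 110.6-fold lower on plate 2 (upper end of the interval 0.012). Neu2, the cytosolic sialidase, had no plate 2 count, 6 in high glucose, against 25 in freshly isolated cells, with the same bound. Itih5, which binds hyaluronan, had 1 plate 2 count, 2 in high glucose, against 24 in freshly isolated cells. Plat, tissue plasminogen activator, had 0, 1 and 21 counts in that order, and was at least 92.9-fold lower. Pcsk5, a protease that activates secreted precursors, had 0, 9 and 17.

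Abi3bp, a matrix protein, had 14 counts in 12 freshly isolated wells and none in any of the 3 media. C1qtnf3 and Olfml2a had 0 plate 2 counts, 2 each in high glucose, and 16 and 12 in freshly isolated cells. Vtn, the adhesive protein vitronectin, had 1, 5 and 18 counts on plate 2, in high glucose and freshly isolated cells, with 7 of the 18 in 1 well. Enpp2, which makes lysophosphatidic acid, had 1, 4 and 16. Among proteins inside the cell, Synpo, which binds actin, had 0, 5 and 19 counts, and Csdc2, which binds RNA, 0, 10 and 20.

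**Figure D4:**
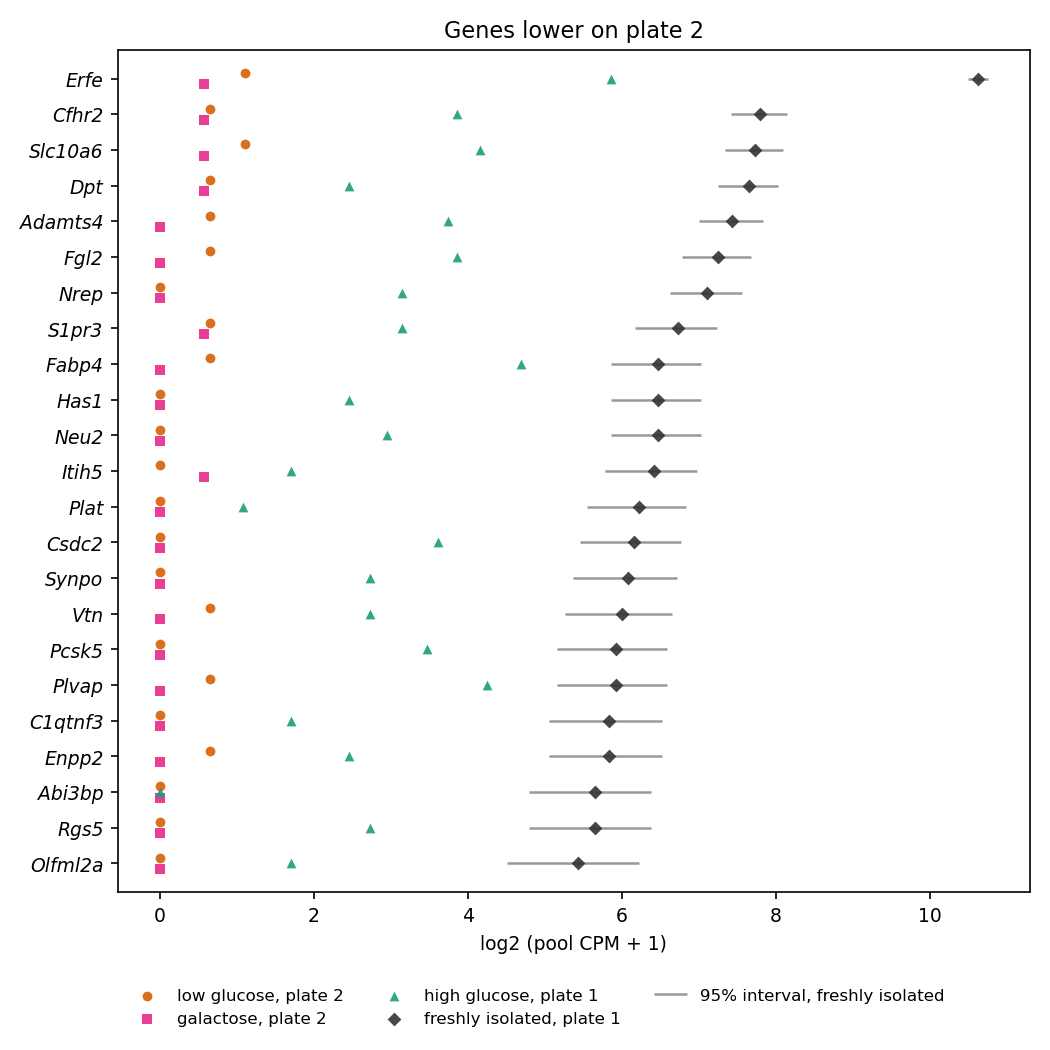
Pool level, as log2 of CPM + 1 (horizontal axis), of 23 named genes lower on plate 2 (rows), in low glucose, galactose, high glucose and freshly isolated cells; grey lines are exact Poisson 95% intervals of the freshly isolated level. Low glucose and galactose lie at or near 0 for each gene, and high glucose lies between them and freshly isolated cells except for Abi3bp, which has 0 counts there.

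Some calls rested on few freshly isolated wells or on genes of other cell types. Il6, the cytokine interleukin-6, had 0, 4 and 15 counts on plate 2, in high glucose and freshly isolated cells, but 11 of the 15 came from 1 well. Ccl11, the chemokine eotaxin, had 0, 8 and 16, of which 8 came from 1 of 5 wells, and Rgs5, a regulator of G protein signals that marks pericytes, had 0, 5 and 14, of which 9 came from 1 of 6 wells. Fabp4, a fatty acid carrier of endothelial cells and adipocytes, had 1 plate 2 count, but 22 counts in high glucose, against 25 in freshly isolated cells. Plvap, of the endothelial fenestra, had 1, 16 and 17 counts, and Cd36, a fatty acid receptor, 1, 19 and 9. These 3 genes were spread thinly over 9 to 21 wells per pool of plate 1 and were called neither higher nor lower within plate 1, with ratios of high glucose over freshly isolated of 0.282 (0.151 to 0.521) for Fabp4, 0.301 (0.142 to 0.634) for Plvap and 0.676 (0.291 to 1.70) for Cd36.

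Marker sums of most other cell types were lower on plate 2. Those of tenocytes and immune cells were higher, but rested on few counts. The sum of the muscle stem cell markers was lower too, at 2378 CPM on plate 2 against 7184 CPM in freshly isolated cells. Endothelial markers summed to 8.22 CPM on plate 2, 51.8 CPM in high glucose and 119.7 CPM in freshly isolated cells, with counts for 5, 10 and 8 of the 10 found. Cdh5, Cldn5, Emcn, Esam and Tie1 were at 0 on plate 2, and Cldn5 and Tie1 in freshly isolated cells. Fibro-adipogenic markers, of which 6 of 11 were found, summed to 35.8, 143.1 and 1151 CPM in the same order of pools, with counts for 4, 5 and 5 of them. Col3a1 gave 872.9 CPM of the freshly isolated sum, in 72 wells, and Dpt 200.6 CPM, in 39 wells. Dcn had no freshly isolated count, so the sum rests mainly on these 2 genes. Smooth muscle and pericyte markers, a list that shares Notch3 with the stem cell list, summed to 68.4, 231.0 and 637.1 CPM, with 7 of 9 found in each pool. Glial markers (3 of 7 found) summed to 4.51, 6.76 and 21.1 CPM and mature myofibre markers (6 of 11 found) to 11.1, 22.5 and 35.2 CPM. Their freshly isolated sums held only 6 and 10 counts. Tenocyte markers (2 of 6 found) gave 9.81 and 7.89 CPM on plate 2 and in high glucose and no freshly isolated count. Immune markers (3 of 11 found) gave 6.10, 7.89 and 3.52 CPM, and erythroid genes were not found. The tenocyte sum on plate 2 rested mainly on Scx, with 36 counts against 0 in freshly isolated cells. The immune sum there rested on Cd68, with 23 counts against 1, and neither gene was called. Of the 89 genes, 6 were such markers. The part of other cell types in the losses was not tested beyond leaving out wells, as given above.

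Quiescence and niche genes had 16 of 32 measured members lower (50%, against 8.04% of all measured genes) and 0 higher, with a median log2 ratio of -1.88, and 17 were lower in high glucose. Its members are known from earlier work on such cells, and the list was chosen with results of these data known. Calcr, the calcitonin receptor, had 1.73 CPM in low glucose, 0.491 CPM in galactose, 4.51 CPM in high glucose and 56.3 CPM in 13 wells of freshly isolated cells, a ratio of 0.0188 (0.00458 to 0.0584). Sdc4, the surface proteoglycan syndecan-4, had 344.2 and 308.0 CPM in low glucose and galactose and 436.0 CPM in high glucose, against 2094 CPM. Cd34, a surface glycoprotein in the same list, did not pass the call, at 271.1 CPM on plate 2, 280.5 CPM in high glucose and 133.8 CPM in freshly isolated cells.

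The matrix lists had large shares called lower. Some members, such as Col1a1 with no plate 2 count, were measured only through their freshly isolated level, which by itself lowers the median and raises the share. Collagens, laminins and matrix had 18 of 29 measured members lower (62.1%) and 0 higher, with a median log2 ratio of -2.63 and 14 lower in high glucose, and 10 of the 18 were weakly expressed. Col1a1, Col1a2 and Col3a1 of these are also fibro-adipogenic markers, which summed to 35.8 CPM on plate 2 and 1151 CPM in freshly isolated cells, and the part of such cells was not tested. Col1a1, a chain of type I collagen, had no plate 2 count, 5 in high glucose, against 10 in freshly isolated cells. Loxl1, which crosslinks elastin, had 1.15 and 1.47 CPM in low glucose and galactose, 2.25 CPM in high glucose and 66.9 CPM in freshly isolated cells. Col5a2 was not called, with a ratio of 1.57 (1.2 to 2.09). Proteases and inhibitors had 10 of 19 lower (52.6%) and 0 higher, with 10 lower in high glucose, among them Adamts9 at 1.33 CPM on plate 2, 12.4 CPM in high glucose and 95 CPM in freshly isolated cells.

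Receptors and their signals were lost in smaller shares. These and the later shares of members called lower stand beside 8.04% of all measured genes on plate 2 and 5.22% in high glucose. The TGF-beta, activin and BMP list had 15 of 34 lower (44.1%) and 0 higher, with a median of -1.38, and 9 were lower in high glucose. Inhbb, a subunit of activin B, had 3.46 and 1.47 CPM in low glucose and galactose, 6.76 CPM in high glucose and 38.7 CPM in freshly isolated cells, and Ltbp3, which holds latent TGF-beta, had 9.81 CPM on plate 2, 6.76 CPM in high glucose and 73.9 CPM in freshly isolated cells. Growth factor and cytokine receptors had 14 of 37 lower (37.8%; 8 in high glucose) and 1 higher, Tnfrsf11a, the receptor RANK. Flt1 and Tek of those lower are endothelial markers. Lifr, the receptor of leukemia inhibitory factor, had 6.92, 5.40 and 14.7 CPM in low glucose, galactose and high glucose, against 59.8 CPM. Flt1, the VEGF receptor bound by Vegfb and an endothelial marker, had 1, 3 and 7 counts on plate 2, in high glucose and freshly isolated cells. The median of this receptor list was -0.69, and it turned to 0.67 when pools were scaled by spike-ins.

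G protein-coupled receptors and regulators had 8 of 22 lower (36.4%) and 0 higher, with 7 lower in high glucose. Rgs4, which shuts off G proteins, had 1.86 CPM on plate 2, 11.3 CPM in high glucose and 81.0 CPM in freshly isolated cells, and F2r, the thrombin receptor, had 220.4, 269.3 and 982.0 CPM. Ion channels and pumps had 10 of 30 lower (33.3%; 8 in high glucose) and 0 higher, at a median of -0.80 that turned to 0.55 under spike-in scaling. Piezo2, a mechanically gated channel, had 0, 1 and 9 counts on plate 2, in high glucose and freshly isolated cells, and Scn7a, a sodium channel, 0, 4 and 8. The Notch list had 4 of 17 lower (23.5%, against 8.04% of all measured genes; 2 in high glucose), and Notch3 of these is also in the pericyte list. The target genes Hes1, with 12.5, 16.9 and 84.5 CPM, and Hey1 were among them. Hey1 had 6, 4 and 7 counts (1.59, 4.51 and 24.6 CPM) and was not called within plate 1. The Notch median of -0.65 turned to 0.70 under spike-in scaling. Of the 24 freshly isolated counts of Hes1, 13 came from 1 well, and without that well the call was lost.

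Interferon response and antigen presentation had 11 of 26 lower (42.3%) and 0 higher, with a median of -1.61, and 5 were lower in high glucose. Gbp2, a GTPase induced by interferon, had 4.61 and 0.983 CPM in low glucose and galactose, 11.3 CPM in high glucose and 66.9 CPM in 16 wells of freshly isolated cells. H2-K1, a heavy chain of MHC class I, had 203.5, 214.1 and 616.0 CPM on plate 2, in high glucose and freshly isolated cells. B2m, the light chain of the same molecule, had 258.1, 202.8 and 440.0 CPM and was not called. H2-Q4 belongs to a family of near-identical genes, so its 7, 4 and 12 counts (1.86, 4.51 and 42.2 CPM) are uncertain.

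Immediate early genes and stress kinases had 22 of 37 lower (59.5%), and heat shock genes and chaperones 13 of 25 (52%), 0 higher in either, against 20 and 10 lower in high glucose. Of the weakly expressed members, only 1 of 6 was lower in the first list and 2 of 6 in the second. Among these, Egr2 had 2.12, 4.51 and 42.2 CPM on plate 2, in high glucose and freshly isolated cells, and Hspb8, a small heat shock protein, 6.10, 12.4 and 63.4 CPM. The abundant members Fosl1 and Hsp90ab1 were not called, at ratios of 0.77 and 0.84.

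The circadian clock had 5 of 15 lower (33.3%; 2 in high glucose), and its median of -1.01 turned to 0.36 under spike-in scaling. Its activator Arntl had 2.92, 10.1 and 35.2 CPM on plate 2, in high glucose and freshly isolated cells and its repressor Per1 10.9, 19.2 and 81.0 CPM. Imprinted genes and long noncoding RNAs had 8 of 30 lower (26.7%; 7 in high glucose), at a median of -0.54 that turned to 0.79 under spike-in scaling. Rian, a noncoding RNA of the Dlk1 domain, had 2, 3 and 10 counts (0.531, 3.38 and 35.2 CPM), and Dlk1 itself 5, 3 and 7 (1.33, 3.38 and 24.6 CPM). The call for Dlk1 was lost without wells holding markers of another type, and Dlk1 was not called within plate 1. Transporters had 5 of 22 lower (22.7%; 5 in high glucose), at a median of -0.39 that turned to 0.98 under spike-in scaling. Among them, Slc16a3, which exports lactate, had 1.15 and 1.47 CPM in low glucose and galactose and 1.13 CPM in high glucose, against 66.9 CPM in freshly isolated cells. Slc43a1, a carrier of neutral amino acids, had 7, 7 and 13 counts (1.86, 7.89 and 45.8 CPM) on plate 2, in high glucose and freshly isolated cells. Among myogenic genes, 4 of 21 were lower (19%, against 8.04% of all measured genes; 4 in high glucose) and 1, Cdh2, was higher. The median of this list was -0.08 and changed sign under 5 of the alternatives. Musk, a kinase of the neuromuscular junction, had 10, 7 and 18 counts (2.65, 7.89 and 63.4 CPM). Des, the muscle intermediate filament, had 4, 1 and 10 counts (1.06, 1.13 and 35.2 CPM), and Myod1, the myogenic regulator, 839.3, 705.3 and 2446 CPM. Myf5, of the same family, was not called at a ratio of 0.933 (0.769 to 1.14).

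The other lists mixed gains and losses or held few called genes. Targets of p53 and cell cycle inhibitors had 6 of 38 higher (15.8%) and 4 lower (10.5%), against 3.09% and 8.04% of all measured genes. Shares near those of all measured genes are not read as a result about a list. Mdm2, which degrades p53, had 1022 CPM in low glucose, 1114 CPM in galactose, 1507 CPM in high glucose and 440.0 CPM in freshly isolated cells, whereas Cdkn1a, the cell cycle inhibitor p21, was not called, at 1970.0 CPM on plate 2, 1983 CPM in high glucose and 2168 CPM in freshly isolated cells. Zinc finger and other transcription factors of quiescence had 2 of 50 higher (4%) and 11 lower (22%), at a median of -0.68 that turned to 0.66 under spike-in scaling. The chromatin proteins Hmga1 and Hmga2 were the higher ones, Hmga1 with 1180.0, 1132 and 366.1 CPM on plate 2, in high glucose and freshly isolated cells. Bach1, a repressor of heme oxygenase, was lower, at 5.31, 14.7 and 73.9 CPM. Antioxidant and glutathione genes had 1 of 40 higher (2.5%) and 7 lower (17.5%). Of those lower, Gstm2, a glutathione transferase, had 3.45 CPM on plate 2, 20.3 CPM in high glucose and 56.3 CPM in freshly isolated cells.

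The counts that follow stand beside 3.09% higher and 8.04% lower over all measured genes, and the lipid and cholesterol list, at 1.96% higher and 5.88% lower, lay below both. Chemokines and cytokines had 2 of 11 higher and 4 lower, growth factor ligands 2 of 13 and 1, lipid and cholesterol genes 1 of 51 and 3, integrins and cadherins 1 of 12 and 3, and guidance cues 1 of 12 and 1. Nucleotide synthesis had 2 of 25 higher, aminoacyl-tRNA synthetases 1 of 31, and neither had a lower member. Polycomb and methylation genes had 3 of 61 lower, and the Wnt pathway (15 measured), nuclear receptors (12) and serine and one-carbon metabolism (21) had 1 each, with 0 higher.

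**Figure D5:**
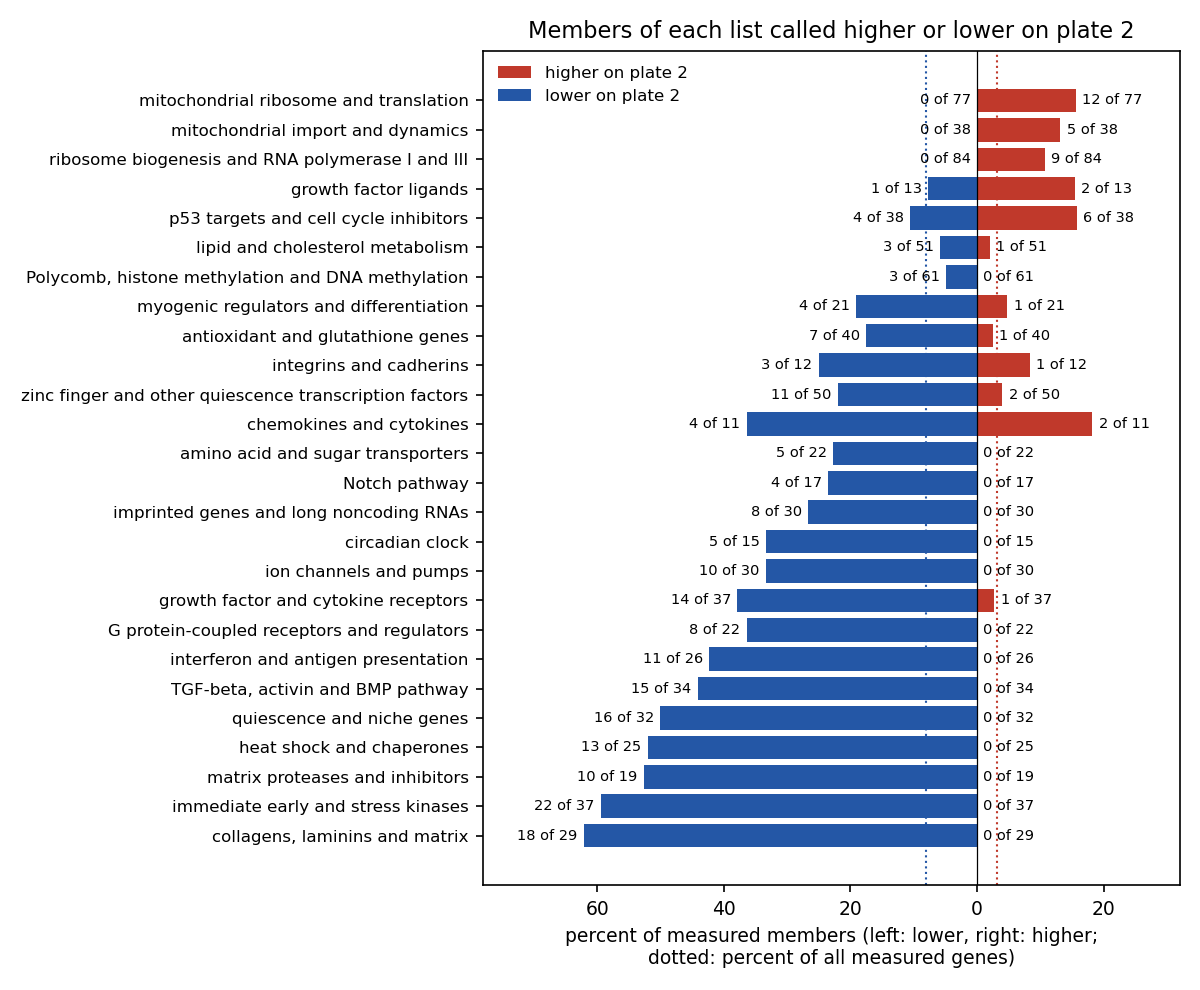
Percent of the measured members of each gene list (rows) called higher (red, to the right) or lower (blue, to the left) on plate 2 against freshly isolated cells; numbers give members called of members measured, and dotted lines mark the percent of all measured genes, 3.09 higher and 8.04 lower. Lists with at least 3 called members are drawn; the mitochondrial and ribosome biogenesis lists extend only to the right, and the collagen list reaches farthest to the left, at 18 of 29.

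Promoter sequence was looked at as one thing the choice of genes did not use. RefSeq promoters of mouse (GRCm38.p6, 250 bases before to 50 after the start of the gene) were matched to 68 of the 106 gained and 214 of the 334 lost weakly expressed genes. The motif CCGGAAGT, bound by ETS factors, was present on either strand in 8 of 80 promoters (10.0%) of gained genes and in 2 of 281 (0.712%) of lost ones, against 10.3% of 3565 promoters of weakly expressed genes that were called neither and 3.89% of all promoters in the table. The motif TGANTCA, bound by AP-1, was present in 2.5% of gained, 7.12% of lost and 4.18% of uncalled promoters, and in 7.81% of all. Promoters of gained genes held a median of 18 CpG, those of lost genes 13, those of uncalled genes 21 and all promoters 7.0. The E-box CACGTG was found in 15% of gained, 4.98% of lost, 10.5% of uncalled and 7.15% of all promoters. Of the other 7 motifs searched on both strands, CCAAT was present in 40.0% of gained, 36.7% of lost, 39.1% of uncalled and 37.4% of all promoters. In the same order, GGGCGG (GC box) was present in 47.5%, 51.6%, 65.5% and 35.7%, TATAAA in 10.0%, 11.4%, 6.42% and 13.6%, TGACGTCA (CRE) in 0%, 2.85%, 3.06% and 1.79%, and the NRF1 motif in 2.5%, 0.356%, 2.52% and 0.971%. TTTCGCGC (E2F) and the heat shock element were found in 0 promoters of gained or lost genes, and in 0.842% and 0.393% of uncalled ones. A match describes the letters of this window and is not a shown binding site.

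The promoters of 2 gained genes with the ETS letters, Erh (chr12:80644062-80644361, minus strand) and Wdr46 (chr17:33940473-33940772, plus strand), and of 2 lost genes with the AP-1 letters, Il6 (chr5:30012864-30013163, plus strand) and Gbp2 (chr3:142620413-142620712, plus strand), are printed to show these letters in place. They were picked after the motif search. Each is written 5′ to 3′ along the gene, and capitals mark the ETS, AP-1, CCAAT and CACGTG letters on either strand. Wdr46 has an ETS match on each strand, and these overlap.
Erh: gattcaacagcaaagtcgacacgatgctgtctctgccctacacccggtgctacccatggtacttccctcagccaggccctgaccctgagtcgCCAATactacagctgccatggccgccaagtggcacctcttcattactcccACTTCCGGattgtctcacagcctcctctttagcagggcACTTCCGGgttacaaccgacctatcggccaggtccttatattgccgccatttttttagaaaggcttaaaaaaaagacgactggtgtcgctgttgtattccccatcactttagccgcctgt
Wdr46: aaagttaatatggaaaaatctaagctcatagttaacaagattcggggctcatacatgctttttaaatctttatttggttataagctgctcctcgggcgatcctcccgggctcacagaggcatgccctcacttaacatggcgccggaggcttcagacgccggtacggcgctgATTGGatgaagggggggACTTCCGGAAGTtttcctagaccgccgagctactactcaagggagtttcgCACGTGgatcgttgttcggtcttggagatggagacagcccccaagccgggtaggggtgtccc
Il6: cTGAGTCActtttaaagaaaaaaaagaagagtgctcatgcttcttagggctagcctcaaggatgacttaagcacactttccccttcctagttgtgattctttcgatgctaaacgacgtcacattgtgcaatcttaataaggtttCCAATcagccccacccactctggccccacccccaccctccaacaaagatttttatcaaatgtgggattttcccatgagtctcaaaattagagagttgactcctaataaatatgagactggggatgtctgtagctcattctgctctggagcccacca
Gbp2: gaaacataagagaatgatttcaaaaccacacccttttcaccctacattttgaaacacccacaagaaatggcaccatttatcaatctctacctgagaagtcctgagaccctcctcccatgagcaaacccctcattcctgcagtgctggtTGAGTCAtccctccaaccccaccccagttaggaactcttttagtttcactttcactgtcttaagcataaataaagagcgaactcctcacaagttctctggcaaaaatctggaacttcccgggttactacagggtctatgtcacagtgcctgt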

How the data were processed

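The authors deposited 1 table of raw counts per gene and well for each plate, with no normalization, and a sheet that gives the condition of each well. Aligner, counter, genome build, use of strand and any collapsing by UMI were not given in the sources used here. Of tools, edgeR alone stands in the submitters' processing notes, with no role. Overlapping genes on opposite strands therefore cannot be told apart. A gene missing from 1 plate's table (3019 and 1891 genes, listed for plate 2 only and plate 1 only) was counted as 0 there. Symbols came from GENCODE M21 for 21132 of 21216 gene identifiers.

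Counts were summed per condition over wells with at least 500 counts and 250 genes, ERCC spike-ins left out, and scaled to CPM (Python 3.11.15, pandas 2.3.3, scipy 1.17.1). Of 457 wells, 1 high glucose well was dropped. Ratios of CPM carry an exact conditional (Clopper-Pearson) 95% interval, which covers counting error only and is not adjusted for picking genes by it. Log2 ratios used a pseudocount of 1 CPM. A gene at 0 was set to a floor of 3 counts over the pool to bound its fold. No doublet caller was run. The interval steps were tested on simulated data.

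Genes to name were, per direction, the 15 weakly expressed called genes with a symbol and a count in at least 5% of wells of the higher pool whose near bound lay farthest from 1, the 10 at 0 freshly isolated counts with the highest plate 2 level, the 10 with 3 or fewer plate 2 counts and the most freshly isolated counts, and up to 4 members of each of 37 lists. Some genes of this rule were left out for room. Markers and called list members named besides these were chosen after their values were seen. The members, rules and lists were chosen with earlier results of these data known. The 17 alternatives covered each medium alone, the high glucose comparison, scaling (TMM from edgeR 4.0.16, median-of-ratios from DESeq2 1.42.0 in R 4.3.3, spike-ins, mitochondrial genes left out, equal weight per well), well minimum, thinning, thresholds, wells with other markers, the top well per gene and the floor.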

Additional observations from a re-analysis of the deposited data

How the results depend on the processing

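No paired analysis was possible because each condition was 1 library, so there was no second replicate to form pairs. Scaling by spike-ins shifted the median log2 ratio by 1.34 and gave 1425 weakly expressed genes higher and 121 lower, 4018 and 228 of all measured genes (4246 in all), and 391 genes with no freshly isolated count. It turned the medians of 9 lists: myogenic genes to 1.28, Notch to 0.70, receptors to 0.67, clock to 0.36, integrins and cadherins to 1.12, ion channels to 0.55, transporters to 0.98, imprinted genes to 0.79 and quiescence transcription factors to 0.66, and it turned the log2 ratio of Sparc, a matrix protein, to 0.016 from a called loss. Median-of-ratios scaling moved the median by -0.12 and dropping the top well by 0.20. Other turns were near 0: myogenic genes to 0.20 with equal weight per well, 0.17 with wells thinned, 0.16 without wells of other markers and 0.083 without the top well, Polycomb and methylation genes to -0.0525 with low glucose alone, -0.0324 with median-of-ratios, -0.216 with wells thinned and -0.0857 without wells of other markers, lipid genes to -0.0696 and integrins and cadherins to 0.00365 with wells thinned. Depth limited the counts of calls. Thinning plate 2 to the freshly isolated total left 67 weakly expressed genes higher and 118 lower, 421 of all measured genes lower (644 called in all), 92 with no freshly isolated count and 659 with 3 or fewer plate 2 counts. Thinning wells left 10 and 83 weakly expressed, 82 and 349 of all (431), and 196 with 3 or fewer counts. Each medium alone gave 139 genes with 3 or fewer counts, where fewer counts alone raise the number. High glucose within plate 1 gave 183 weak and 464 measured losses. Equal weight per well gave 163 weak gains. Dropping the well with the most counts of each gene gave 254 weak gains and 248 weak losses, 486 gains in all and 206 genes at 0. That step removes every count of a gene found in 1 well, and its part in the gains was not tested. The ratio alone gave 1632 and 828 weak calls, 2420 and 1366 in all (3786), an interval beyond 3-fold 14 weak gains, 47 gains in all and 523 calls, and the narrower range 183 weak losses and 166 gains and 373 losses above 50 CPM (539). A floor of 6 counts left 6 genes at 0. The causes were not tested otherwise. Of the 99 named genes that were called, 52 kept the call with every well thinned, 72 for high glucose within plate 1, 77 with plate 2 thinned, 81 with spike-ins, 94 without wells of other markers and 97 with TMM.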

Other observations

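Below the range of the report, 12427 genes lay under a mean of 10 CPM, of which 10346 had a plate 2 count. Of these, 1428 had 10 or more plate 2 counts and none in freshly isolated cells. In freshly isolated cells, 3 counts stand for 10.6 CPM. For genes under that level on plate 2, the freshly isolated depth cannot tell the pattern from equal levels, and those above it were not read singly. In the other direction, 786 genes had a freshly isolated count and none on plate 2, up to the 39 counts of Nrep. Over the 106 weakly expressed genes that were higher on plate 2, the ratio of low glucose to galactose CPM lay between 0.564 and 1.58.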
